A study of Mus musculus with 11 samples.

Results

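The 39 genes described here fall into 2 classes: 23 glycolytic genes (the enzymes from hexokinase to lactate dehydrogenase, 3 regulators, and the glucose and lactate transporters) and 16 hypoxia genes (oxygen-regulated transcription factors, the oxygen sensors that mark them for destruction, and other hypoxia targets). They were chosen by symbol among the 27179 genes of the deposited count files, and all 39 were found. The RNA came from neural tissue, the brain cut behind the otic vesicle, of C57BL/6 mouse embryos at embryonic day 9.5, with 1 library per embryo. The 4 affected females and the 4 control males were p53-/- Bim+/-, and the 3 control females were p53+/+ Bim+/-. By these labels, all 11 embryos carried 1 mutant copy of Bim, the gene of a pro-apoptotic protein, and 8 lacked p53, the tumour suppressor. How the affected females were affected, and which embryos were littermates, is not in the labels. Affected and control females differ in p53 genotype as well as in being affected, and affected females and control males differ in sex as well, so in each of these comparisons the parts cannot be told apart.

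Glycolysis splits glucose into pyruvate in the cytosol. In embryos of this stage much of the pyruvate is turned into lactate and exported, even with oxygen present. When oxygen is low, prolyl hydroxylases (the Egln proteins) stop marking HIF-1α (from Hif1a) and HIF-2α (from Epas1) for destruction. The factors then bind a short DNA motif and activate vessel growth, mitophagy, collagen hydroxylation and most glycolytic genes. HIF-1α is controlled chiefly as a protein, so the RNA of Hif1a does not report its activity. Glycolytic genes and other hypoxia targets are therefore often measured side by side, since a response to low oxygen is known to raise many of each.

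The libraries held between 8211942 and 11218682 counts. Of all genes, 14542 passed the filter on low counts, and all 39 members were among them; the lowest count of any member in any library was 5, for Adm. Levels are counts scaled to library size by TMM (CPM), and levels of different genes are compared only per kilobase of gene length (RPKM). Trp53, the gene of p53, did not separate the genotypes in whole-gene counts (105 to 139 CPM over all libraries). Ccng1, a cyclin gene that p53 activates, lay between 21.8 and 33.5 CPM in p53-/- libraries and between 74.7 and 93.8 CPM in p53+/+ libraries. The 4 Y-linked genes Kdm5d, Uty, Ddx3y and Eif2s3y summed to at least 286 CPM in control males and at most 1.27 CPM in females. Bcl2l11, the gene of Bim, was at 36.0 to 47.7 CPM in the p53-/- libraries and 71.0 to 82.1 CPM in the control females, although the labels give all groups the same Bim genotype. All 8 neural progenitor markers, among them Sox2 and Nes, were detected, with a sum of 889 to 1186 CPM per embryo.

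Whether members share ACGTG, a form of the binding motif of the HIF factors, in their promoters was examined first. The search was for ACGTG on either strand in the 250 bases before each start site (RefSeq, GRCm38.p6). Other forms of the motif were not searched, so a window without ACGTG may still hold another form. These letters also lie inside the E-box CACGTG, which other factors bind. The promoter table matched 35 of 39 members, with 53 windows (not Slc2a3, Epas1, Ndrg1 and Bhlhe40). ACGTG was found in 25 of the 53 windows, or 47.2%, against 16.6% of all 32851 windows in the table and 21.2% of 13926 windows of tested genes. By class, 14 of 35 windows of glycolytic genes held it and 11 of 18 windows of hypoxia genes. Of the 18 windows of genes that rose in affected females against both control groups, 7 held it (38.9%). These windows belong to 11 genes, 6 of them with ACGTG, and overlapping windows of Aldoa share the same site. No window of Hk1, Gpi1, Tpi1, Eno1, Pfkl or Ldhb held ACGTG. Base composition was not matched in this count, and a match is a description of the letters, not of binding. The windows are reference sequence, and members were chosen as glycolytic or hypoxia genes, many known to respond to low oxygen. The higher share among members therefore says nothing about these embryos. The sequences below were chosen because they hold ACGTG. They lie before genes that rose in affected females (Ldha, Pgk1, Pgam1 and Slc2a1) and before Bnip3, which did not pass the test. Letters are 5′ to 3′ on the gene's strand, and capitals mark ACGTG or its reverse complement.
Ldha, chr7:46845554-46845803, plus strand: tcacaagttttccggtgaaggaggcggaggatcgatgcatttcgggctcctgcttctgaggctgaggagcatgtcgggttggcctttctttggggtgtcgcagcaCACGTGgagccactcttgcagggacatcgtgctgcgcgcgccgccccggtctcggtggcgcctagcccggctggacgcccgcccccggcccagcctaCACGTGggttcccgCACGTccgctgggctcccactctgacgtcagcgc
Pgk1, chrX:106186850-106187099, plus strand: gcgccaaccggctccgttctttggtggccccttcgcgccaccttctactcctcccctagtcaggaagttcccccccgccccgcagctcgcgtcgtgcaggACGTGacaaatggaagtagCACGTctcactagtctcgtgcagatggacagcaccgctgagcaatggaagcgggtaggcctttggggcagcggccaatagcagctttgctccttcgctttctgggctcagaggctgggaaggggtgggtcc
Pgam1, chr19:41911621-41911870, plus strand: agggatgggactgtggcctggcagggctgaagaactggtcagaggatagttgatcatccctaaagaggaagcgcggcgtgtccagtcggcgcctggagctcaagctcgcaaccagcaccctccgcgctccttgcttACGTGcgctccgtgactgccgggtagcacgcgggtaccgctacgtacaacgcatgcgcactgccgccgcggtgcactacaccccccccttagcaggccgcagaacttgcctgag
Slc2a1, chr4:119108495-119108744, plus strand: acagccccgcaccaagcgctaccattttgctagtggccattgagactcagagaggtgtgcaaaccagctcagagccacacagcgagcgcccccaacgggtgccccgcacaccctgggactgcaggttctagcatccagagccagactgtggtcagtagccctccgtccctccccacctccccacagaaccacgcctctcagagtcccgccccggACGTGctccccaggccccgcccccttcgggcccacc
Bnip3, chr7:138909507-138909756, minus strand: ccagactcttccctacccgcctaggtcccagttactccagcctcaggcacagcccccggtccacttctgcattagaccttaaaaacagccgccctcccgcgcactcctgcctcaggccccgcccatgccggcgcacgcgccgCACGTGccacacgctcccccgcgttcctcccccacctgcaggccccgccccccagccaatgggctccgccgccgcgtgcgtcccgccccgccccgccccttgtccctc
In Ldha, a CACGTG lies with its first base 145 bases before the start site and again 48 bases before it. Bnip3 has a CACGTG whose first base lies 108 bases before its start.

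Most glycolytic genes were higher in affected females than in either control group. Hypoxia genes were called no more often than tested genes as a whole. Against control females, 14 of the 23 glycolytic genes rose, 1 fell (Ldhb) and 8 did not pass the test (edgeR's quasi-likelihood test, Benjamini-Hochberg adjusted p under 0.05 over 14542 genes). The background was 13.0% of all tested genes called higher and 15.0% called lower, 28.0% in all, against 18 of 39 members. At an unadjusted p under 0.05 there were 24 of 39 members, beside 42.4% of tested genes. The median log2 fold change over the 23 genes was 0.55, against 0.00 over all tested genes. Of the 16 hypoxia genes, 1 rose (Hif1a) and 2 fell (Vegfa and Bhlhe40), beside the same 13.0% and 15.0%, with a median of -0.22. Against control males, 13 of 23 glycolytic genes rose and 1 fell, beside a background of 9.51% higher and 10.7% lower (20.2% in all, against 15 of 39 members), and the median was 0.53 against -0.02 over all tested genes. None of the 16 hypoxia genes rose against control males and 1 fell (Vegfa), beside the same 9.51% and 10.7%, with a median of 0.04. At an unadjusted p under 0.05 there were 3 of these 16 (21 of 39 members, background 37.3%). DESeq2 called 0 of the 16 higher and 1 lower, beside 11.4% and 11.5% of all tested genes. Limma voom with sample weights called 3 higher and 2 lower, beside 21.6% and 22.4%. The affected females are the same 4 libraries in both comparisons. Without any test, the affected females lay wholly above the control females for 10 glycolytic and 2 hypoxia genes (background 20.2%) and wholly below for 1 and 2 (20.0%). Against control males they lay above for 12 and 0 (background 10.1%) and below for 1 and 0 (9.43%).

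**Figure D1:**
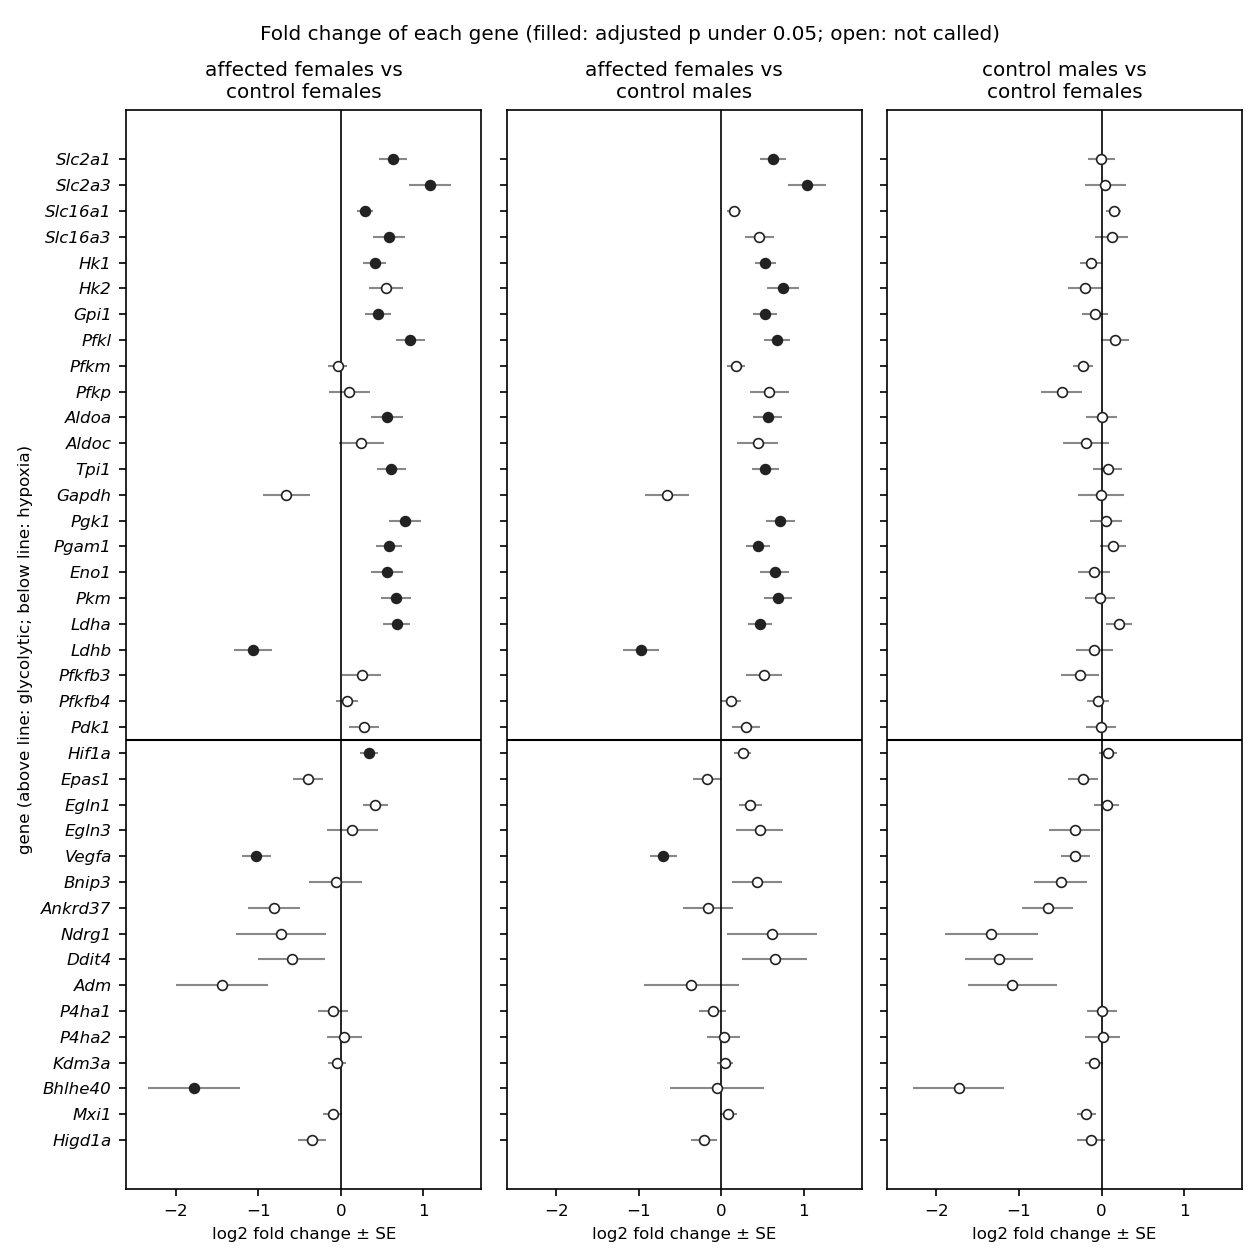
Log2 fold change of each of the 39 genes (horizontal axis, ± SE) in 3 comparisons, with filled points for an adjusted p under 0.05 and open points for genes not called. Above the line, 14 and 13 of the 23 glycolytic genes are filled on the right of 0 in the comparisons of affected females; below the line, Vegfa is filled on the left in both, and no point is filled in the comparison of control males with control females.

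The number of calls rested on single libraries. Against control females, the 14 higher glycolytic genes became 8 without affected female 1, 4 without affected female 3 and 9 without affected female 4. In these fits 10.4%, 4.63% and 6.88% of all tested genes were called higher. The number fell to 3 when control female 2 was left out, to 2 for control female 3, and to 8 for control male 3, which only shares the estimate of the spread. The shares of all tested genes there were 4.77%, 3.80% and 9.61%. Against control males, the 13 became 7 without affected female 1, 0 without affected female 3 and 8 without affected female 4, beside 6.63%, 1.23% and 3.73%. Leaving out control male 1, 2 or 3 gave 1, 4 and 7, beside 2.00%, 3.68% and 4.15%. Calls over all genes moved too: 4073 against control females became 1663 without control female 3, and 2940 against control males became 361 without affected female 3. No member changed the sign of its fold change, when any 1 of the 11 libraries was left out, in a comparison that had called it. Slc2a3, Pfkl, Ldhb and Vegfa kept their call against control females with each of the 11 libraries left out. Against control males, Slc2a3 and Ldhb kept it in 10 of the 11 fits, and Pfkl and Vegfa in 9. Other calls were kept less often, such as Eno1 and Hk1 against control females in 3 fits and Pgam1 against control males in 2. These 2 comparisons share the affected females, so their calls do not stand apart from each other.

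The glucose transporters come first in the pathway. Slc2a3 (chromosome 6, 122727809 to 122802363 in GRCm38) encodes GLUT3, the high-affinity transporter of neurons and early embryonic cells. Its level was 1106, 959, 1016 and 828 CPM in affected females 1 to 4, 457, 359, 495 and 598 CPM in control males 1 to 4, and 736, 378 and 277 CPM in control females 1 to 3. Every affected female was above every control of either sex, and control female 1 was the highest control. The rise was 2.11-fold against control females (log2 fold change 1.08 with SE 0.25, edgeR adjusted p = 0.00894) and 2.05-fold against control males (1.03 with SE 0.23, edgeR adjusted p = 0.0118). Without control female 1, the log2 fold change against control females was 1.58.

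Slc2a1 encodes GLUT1, the transporter of most embryonic tissues and of the blood-brain barrier. It stood at 443, 373, 395 and 290 CPM in affected females, 214, 216, 262 and 278 CPM in control males and 320, 207 and 203 CPM in control females. Affected female 4 lay below control female 1, so the ranges of the female groups overlapped, while all 4 affected females were above all control males. The log2 fold changes were 0.63 (SE 0.17, edgeR adjusted p = 0.0158) and 0.63 (SE 0.15, edgeR adjusted p = 0.0166). Per kilobase, Slc2a3 exceeded Slc2a1 1.62 to 1.85 times in affected females, 1.08 to 1.40 times in control males and 0.886 to 1.49 times in control females. The ranges of that ratio did not overlap between affected females and either control group, and the ratio was higher in every affected female than in every control.

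The lactate exporters Slc16a1 (MCT1) and Slc16a3 (MCT4, the low-affinity exporter of glycolytic cells) rose against control females and passed no test against control males. Slc16a1 was at 242 ± 7.44 CPM (SD, n = 4) in affected females, 218 ± 17.1 CPM (n = 4) in control males and 197 ± 25.1 CPM (n = 3) in control females. By embryo, it had 235, 252, 244 and 238 CPM, then 219, 193, 230 and 228 CPM, then 226, 178 and 187 CPM in these groups, so every affected female was above every control. Its log2 fold change was 0.30 (SE 0.10, edgeR adjusted p = 0.0337) against control females and 0.15 (SE 0.09, edgeR adjusted p = 0.217) against control males. Slc16a3 was at 130 CPM in affected female 1 and between 63.2 and 73.3 CPM in the other affected females, against 51.5 to 69.7 CPM over all 7 controls. Its log2 fold change of 0.58 against control females (SE 0.20, edgeR adjusted p = 0.0382) was 0.30 without affected female 1 (adjusted p = 0.0816 by edgeR). Against control males it was 0.46 (SE 0.18, edgeR adjusted p = 0.0746).

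In the preparatory steps of glycolysis, 5 of 9 genes rose against control females and 6 of 9 against control males. The shares of all tested genes called higher were 13.0% and 9.51%. Hk1 and Hk2 encode the hexokinases that trap glucose in the cell. Hk2 had 183, 143, 167 and 152 CPM in affected females, 82.1, 77.0, 99.2 and 126 CPM in control males, and 164, 83.8 and 84.9 CPM in control females. It rose against control males (log2 fold change 0.75 with SE 0.19, edgeR adjusted p = 0.0197) and stood at 0.55 against control females (SE 0.21, edgeR adjusted p = 0.0621), where control female 1 lay within the range of the affected females. Without control female 1 the latter value was 0.94 (adjusted p = 0.00234 by edgeR). Hk1 lay at 28.9, 28.1, 31.9 and 28.6 CPM in affected females, above the 17.3, 18.2, 19.1 and 26.4 CPM of control males and the 22.3, 20.9 and 23.3 CPM of control females. The log2 fold changes of Hk1 were 0.41 (SE 0.14, edgeR adjusted p = 0.0365) and 0.53 (SE 0.12, edgeR adjusted p = 0.0136).

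Phosphofructokinase commits the sugar to glycolysis, and its 3 genes differed. Pfkl, the liver-type subunit (chromosome 10, 77986947 to 78009807), had 259, 229, 231 and 200 CPM in affected females. The control males had 130, 96.9, 156 and 192 CPM and the control females 146, 122 and 117 CPM. All 4 affected females lay above all 7 controls, and the log2 fold changes were 0.84 (SE 0.17, edgeR adjusted p = 0.0052) and 0.67 (SE 0.16, edgeR adjusted p = 0.0138). Pfkm, the muscle-type subunit, had a log2 fold change of -0.04 against control females (95% interval -0.27 to 0.19) and 0.18 against control males (-0.03 to 0.40). Pfkp, the platelet type, varied most: it was at 29.7 CPM in affected female 1, 20.6 CPM in affected female 3 and 13.0 to 13.4 CPM in the remaining affected females, with 23.6 CPM in control female 1. Of the summed RPKM of the 3 genes, Pfkl made up 73.1% to 78.6% in affected females and 61.6% to 63.4% in control females, which did not overlap. In control males it was 58.7% to 73.1%, so control male 4 reached the lower end of the affected females.

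Among the remaining genes of these steps, Gpi1 (the isomerase), Aldoa (the main embryonic aldolase) and Tpi1 (triose phosphate isomerase) rose in each of the comparisons with affected females. Aldoa was at 645, 500, 588 and 516 CPM in affected females, 353, 279, 400 and 493 CPM in control males and 512, 326 and 306 CPM in control females. Its log2 fold changes were 0.56 (SE 0.19, edgeR adjusted p = 0.0398) and 0.56 (SE 0.17, edgeR adjusted p = 0.0366). Control female 1 again fell inside the range of affected females. Tpi1 was at 686, 592, 615 and 547 CPM, at 393, 287, 435 and 568 CPM and at 466, 370 and 363 CPM in the same order of groups, and control male 4 alone of the controls reached the affected range. Gpi1 was at 228, 180, 220 and 198 CPM in affected females, 125, 124, 146 and 178 CPM in control males and 195, 133 and 126 CPM in control females. Tpi1 stood at a log2 fold change of 0.61 (SE 0.17) and 0.53 (SE 0.16), and Gpi1 at 0.45 (SE 0.16) and 0.53 (SE 0.14), all with adjusted p between 0.0204 and 0.0421 by edgeR. Aldoc, a brain aldolase, was near the low end at 2.89 to 6.27 CPM in all embryos and passed neither test.

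In the steps that yield ATP, 5 of 7 genes rose and Ldhb fell in each of these comparisons. Of all tested genes, 13.0% and 9.51% were called higher, and 15.0% and 10.7% lower. Pkm, pyruvate kinase, makes pyruvate. It had 1628, 1518, 1807 and 1625 CPM in affected females, 874, 750, 1066 and 1408 CPM in control males and 1275, 962 and 876 CPM in control females. All affected females exceeded all controls, with log2 fold changes of 0.66 (SE 0.18, edgeR adjusted p = 0.0175) and 0.68 (SE 0.17, edgeR adjusted p = 0.0167). The counts cover the whole gene, so its M1 and M2 splice forms were not separated. Pgam1, phosphoglycerate mutase, was at 1188, 1065, 1108 and 1020 CPM in affected females, 788, 558, 849 and 1017 CPM in control males and 844, 685 and 662 CPM in control females. Its log2 fold changes were 0.58 (SE 0.16, edgeR adjusted p = 0.0172) and 0.45 (SE 0.15, edgeR adjusted p = 0.0435). Eno1, enolase, had 316, 273, 322 and 294 CPM in affected females, 170, 142, 201 and 256 CPM in control males and 283, 176 and 156 CPM in control females. Control female 1 lay within the affected range. The log2 fold changes were 0.56 (SE 0.19, edgeR adjusted p = 0.0444) and 0.65 (SE 0.18, edgeR adjusted p = 0.0239).

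Pgk1, phosphoglycerate kinase, is the only member on chromosome X (106187100 to 106203699). It was at 156, 168, 166 and 131 CPM in affected females, 89.0, 69.0, 104 and 115 CPM in control males and 129, 71.1 and 73.0 CPM in control females, with no overlap between affected females and controls. The rise was 1.71-fold (log2 fold change 0.77 with SE 0.20, edgeR adjusted p = 0.0121) and 1.64-fold (0.72 with SE 0.18, edgeR adjusted p = 0.0175). X-linked genes were also higher as a whole: over 528 of them without Xist the median was 0.18 against control females and 0.22 against control males. Xist, the RNA that silences an X chromosome, was at 1435 to 2167 CPM in affected females, 4391 to 5959 CPM in control females and at most 13.2 CPM in control males. The part of these differences in the result for Pgk1 was not tested.

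Lactate dehydrogenase showed opposite changes of its 2 subunits. Ldha (chromosome 7, 46842274 to 46855627) encodes the A subunit, typical of tissues that make lactate, and Ldhb (chromosome 6, 142490249 to 142507957) the B subunit, typical of tissues that oxidise it. Ldha had 2110, 1981, 2006 and 1755 CPM in affected females, 1361, 1046, 1464 and 1807 CPM in control males and 1469, 1117 and 1097 CPM in control females. No control female reached the affected range, and control male 4 lay above affected female 4. Its log2 fold changes were 0.68 (SE 0.16, edgeR adjusted p = 0.00965) and 0.47 (SE 0.15, edgeR adjusted p = 0.0385). Ldhb had 20.4, 18.4, 21.6 and 26.4 CPM in affected females, 42.0, 57.6, 36.8 and 34.0 CPM in control males and 27.7, 43.4 and 64.1 CPM in control females. Every affected female was below every control. Ldhb fell 2.08-fold against control females (log2 fold change -1.06 with SE 0.23, edgeR adjusted p = 0.00642) and 1.96-fold against control males (-0.97 with SE 0.22, edgeR adjusted p = 0.0119). Per kilobase, Ldhb made up 1.37% to 2.20% of the summed RPKM of the pair in affected females, 2.74% to 7.61% in control males and 2.74% to 8.03% in control females. Ldha thus stayed the main form in all 11 embryos, with the Ldhb share lower in affected females than in every control.

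**Figure D2:**
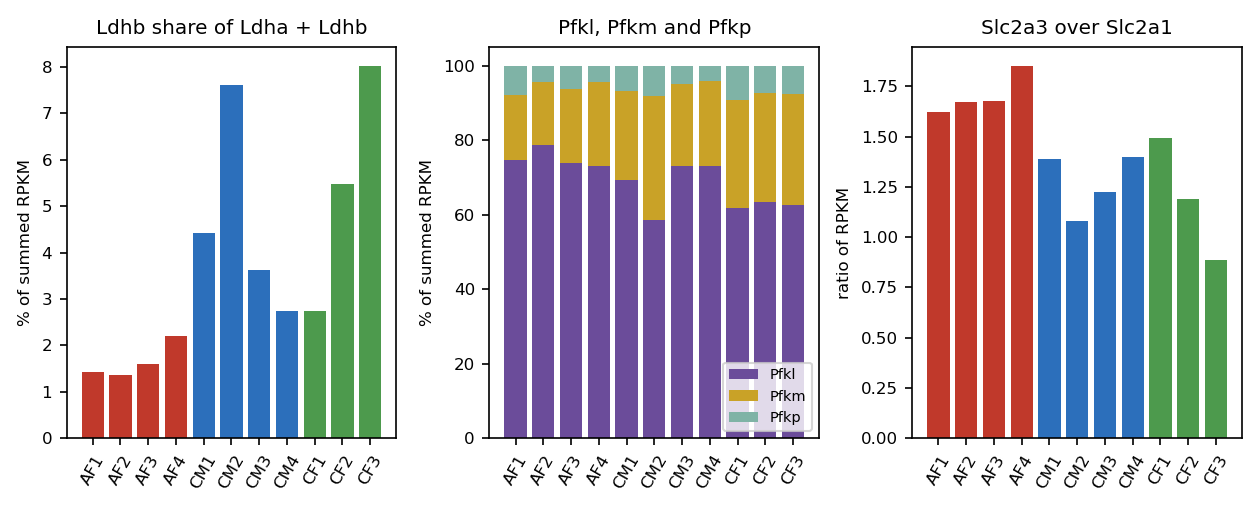
Share of Ldhb in the summed RPKM of Ldha and Ldhb, shares of Pfkl, Pfkm and Pfkp in their sum, and the ratio of Slc2a3 to Slc2a1, 1 bar per embryo (AF affected female, CM control male, CF control female). The 4 affected females have the lowest Ldhb shares, at most 2.20%, and the highest Slc2a3 to Slc2a1 ratios, at least 1.62.

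Gapdh, the dehydrogenase between Tpi1 and Pgk1, went the other way without passing the test. It was at 16.6 CPM in affected female 1 and 7.09 to 8.52 CPM in the other affected females, against 9.18 to 23.1 CPM in controls, with log2 fold changes of -0.66 (SE 0.29, edgeR adjusted p = 0.0925) and -0.65 (SE 0.27, edgeR adjusted p = 0.0893). Per kilobase its level of 8.15 RPKM in affected females was below the 86.2 RPKM of Pgk1 and the 381 RPKM of Tpi1, its neighbours in the pathway. Mouse Gapdh has many near-identical processed copies, and the counting of reads that match several places is not described in the labels. Of all 50-base stretches of its longest coding transcript (GENCODE vM21), 82.5% also occurred exactly in annotated transcripts of other genes, 222 genes in all. The shares were 72.2% for Eno1, 68.0% for Pgk1, 62.4% for Bnip3, 41.5% for Pgam1, 36.6% for Higd1a, 34.4% for Pkm, 27.0% for Ldhb and 25.3% for Gpi1. For Slc2a3, Hk2 and Slc16a1 it was 0%, for Slc2a1 1.74%, for Pfkl 0.0543%, for Vegfa 0.235% and for Ldha 16.6%. Levels of Gapdh, Eno1, Pgk1, Pgam1, Pkm, Ldhb, Gpi1, Bnip3 and Higd1a are therefore uncertain, and the rises of Slc2a3, Slc2a1 and Pfkl rest on nearly unique sequence.

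The 3 regulators of the pathway did not pass either test. Pfkfb3 and Pfkfb4 make the activator of phosphofructokinase, and Pdk1 blocks the entry of pyruvate into mitochondria. Pdk1 was at 204 CPM in affected female 1 and 107 to 116 CPM in the other affected females, against 96.1 to 126 CPM in controls. Pfkfb3 was highest in affected female 1 (108 CPM) and control female 1 (101 CPM), and between 45.4 and 74.2 CPM elsewhere. Pfkfb4 hardly varied, at 8.47 to 10.9 CPM in all embryos.

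Among the oxygen-regulated factors and sensors, Hif1a (chromosome 12, 73901324 to 73947554) rose slightly against control females. Its level was 290, 355, 347 and 334 CPM in affected females, 257, 243, 279 and 329 CPM in control males and 278, 255 and 253 CPM in control females. All affected females were above all control females, affected female 1 by the smallest margin. The log2 fold change was 0.34 (SE 0.11, edgeR adjusted p = 0.0329), and 0.26 against control males (SE 0.10, edgeR adjusted p = 0.0766). Epas1, whose protein HIF-2α acts mainly in vessels and other non-neural cells, was at 5.28, 5.44, 4.66 and 6.10 CPM in affected females, 4.89, 7.86, 5.52 and 6.00 CPM in control males and 7.48, 6.25 and 7.51 CPM in control females. Its log2 fold changes of -0.40 (SE 0.19, edgeR adjusted p = 0.115) and -0.17 (SE 0.17, edgeR adjusted p = 0.486) did not pass. Per kilobase, Hif1a stood at 69.6 RPKM in affected females and Epas1 at 1.00 RPKM.

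Egln1, the main oxygen sensor, was at 105 CPM in affected female 1 and 75.1 to 78.5 CPM in the other affected females, against 52.5 to 68.4 CPM in control females. Its log2 fold change of 0.41 (SE 0.15, edgeR adjusted p = 0.0521) just missed the threshold. Egln3, a sensor gene that hypoxia itself induces, was highest in control female 1 (28.4 CPM) and affected female 1 (25.0 CPM). The remaining control females had 9.96 and 10.8 CPM.

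Vegfa, the growth factor that draws vessels into the brain, fell. The gene lies on chromosome 17 at 46016993 to 46032377. Its level was 66.3, 55.4, 49.0 and 47.7 CPM in affected females, 102, 112, 82.0 and 60.1 CPM in control males and 129, 105 and 99.4 CPM in control females. All affected females were below all control females, and control male 4 lay within the affected range. The fall was 2.03-fold against control females (log2 fold change -1.02 with SE 0.17, edgeR adjusted p = 0.00279) and 1.63-fold against control males (-0.71 with SE 0.16, edgeR adjusted p = 0.0134). Without control female 1 it was -0.90 (adjusted p = 0.00451 by edgeR). Markers of endothelial cells, among them Pecam1 and Cdh5, summed to 285 to 361 CPM in affected females, 283 to 351 CPM in control males and 321 to 336 CPM in control females. Of these 10 markers, 1 was called lower against control females and 0 against control males, where 3 had an unadjusted p under 0.05. Of all tested genes, 15.0% were called lower against control females, and 10.7% were called lower and 37.3% had an unadjusted p under 0.05 against control males. In bulk tissue, fewer cells of a type and less RNA per cell cannot be told apart.

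**Figure D3:**
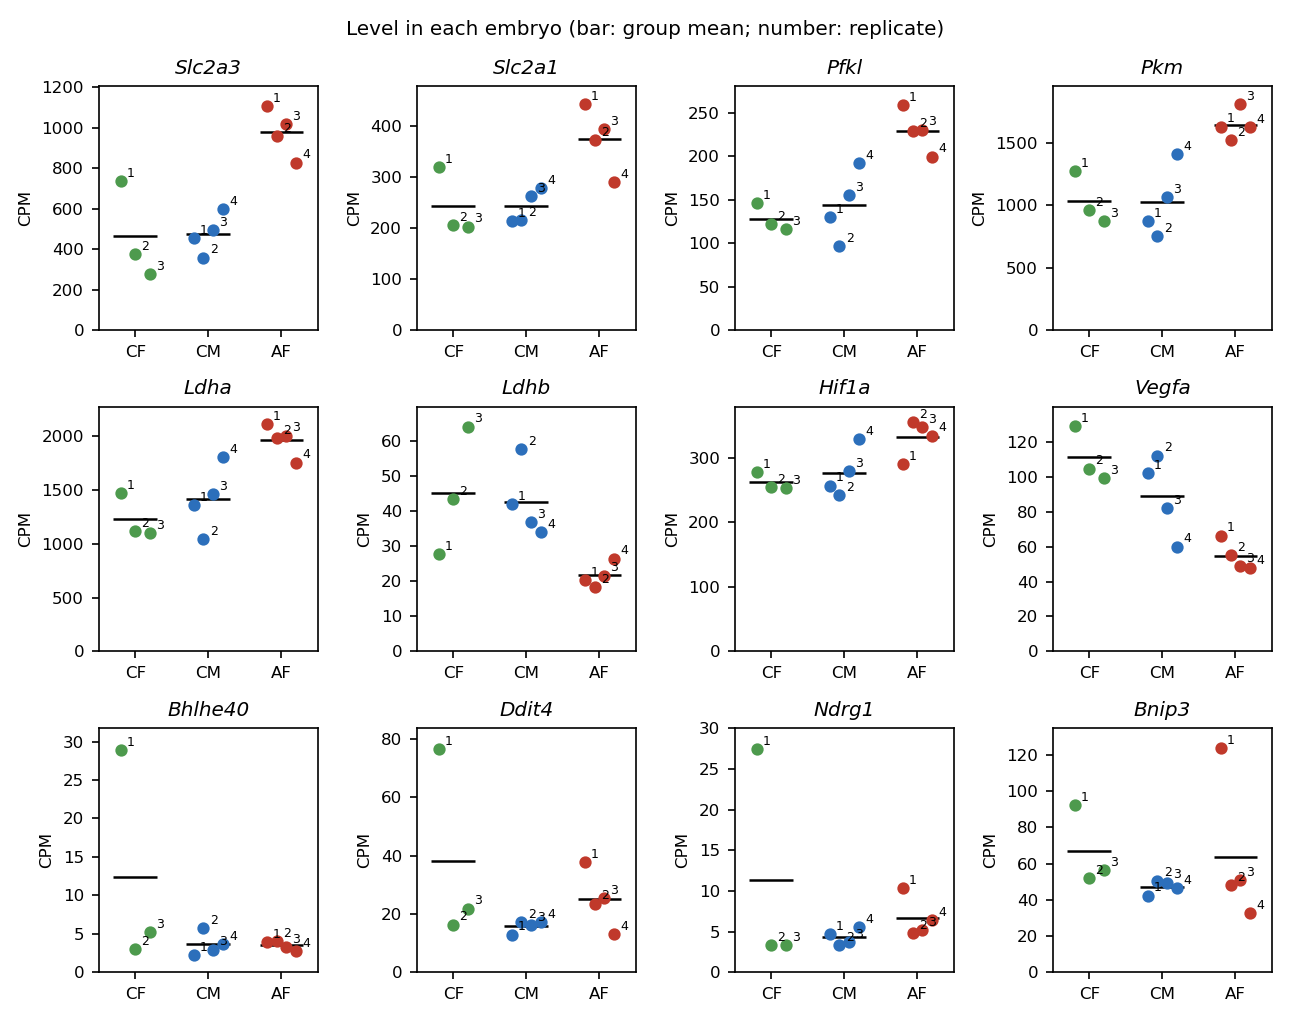
CPM of 12 members in each embryo, by group (CF control female, CM control male, AF affected female), with a bar at the group mean and the replicate number beside each point. Slc2a3, Pfkl and Pkm have all 4 affected females above all controls, and Ldhb has them below. Bhlhe40, Ddit4 and Ndrg1 are highest in control female 1.

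For the other hypoxia targets, and for glycolytic genes too, single embryos stood out within their groups. Control female 1 had the highest level of its group for 14 of 16 hypoxia genes, and the highest of all 11 embryos for 9. Affected female 1 was the highest affected female for 13 of 16. Of the 23 glycolytic genes, control female 1 was the highest control female for 19, and affected female 1 the highest affected female for 15 and the highest of all 11 embryos for 14. Ndrg1, a stress-induced gene, was at 27.4 CPM in control female 1 against 3.39 and 3.34 CPM in control females 2 and 3, 3.41 to 5.54 CPM in control males and 4.83 to 10.4 CPM in affected females. Ddit4, an inhibitor of mTORC1 that p53 also induces, was at 76.6 CPM in control female 1, against 16.4 and 21.9 CPM in the remaining control females and 37.9, 23.6, 25.4 and 13.3 CPM in affected females. Adm, a vasoactive peptide, was at 4.98 CPM in control female 1 and at most 1.76 CPM elsewhere. Control female 1 thus stood apart for several targets at once.

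Bhlhe40, a transcriptional repressor induced by low oxygen, was called lower against control females, with a log2 fold change of -1.78 (SE 0.55, edgeR adjusted p = 0.028). That call came with 28.9 CPM in control female 1, against 3.07 and 5.19 CPM in control females 2 and 3 and 3.89, 4.11, 3.26 and 2.81 CPM in affected females. Control males had 2.26 to 5.79 CPM. Without control female 1 the value was -0.25 (adjusted p = 0.585 by edgeR). Bnip3, which drives removal of mitochondria, was at 124 CPM in affected female 1 and 32.7 to 50.7 CPM in the other affected females, with 92.3 CPM in control female 1. Its log2 fold change was -0.06 against control females (95% interval -0.70 to 0.57).

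Leaving out these 2 embryos changed which hypoxia genes were called. Without control female 1, 4 hypoxia genes were called higher against control females (Hif1a, Egln1, Egln3 and Ndrg1), 1 lower (Vegfa), and the class median was 0.11. In that fit 31.1% of all tested genes were called, so the 5 of 16 are near the background. Without affected female 1, 1 was higher (Hif1a) and 5 lower (Vegfa, Bhlhe40, Bnip3, Ankrd37 and Higd1a), beside 10.4% and 12.8% of all tested genes. With both left out, which was tried only after seeing the data, Hif1a was higher, Vegfa was lower, and the median was -0.08. That fit called 13.4% of all tested genes higher and 14.2% lower. Over the 11 fits that each left out 1 library, Hif1a kept its call against control females in 5 and Vegfa in 11. In the glycolytic class 15 genes were called higher without control female 1 and 15 without both, beside 14.8% and 13.4% of all tested genes. Of these 15 and 15 genes, 13 and 13 were among the 14 called with all libraries. The class medians were 0.68 and 0.63. The enzymes P4ha1 and P4ha2, which hydroxylate collagen, the histone demethylase gene Kdm3a and Mxi1, a MYC antagonist, had log2 fold changes between -0.10 and 0.04 against control females and -0.11 and 0.09 against control males. None of these 4 passed a test.

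**Figure D4:**
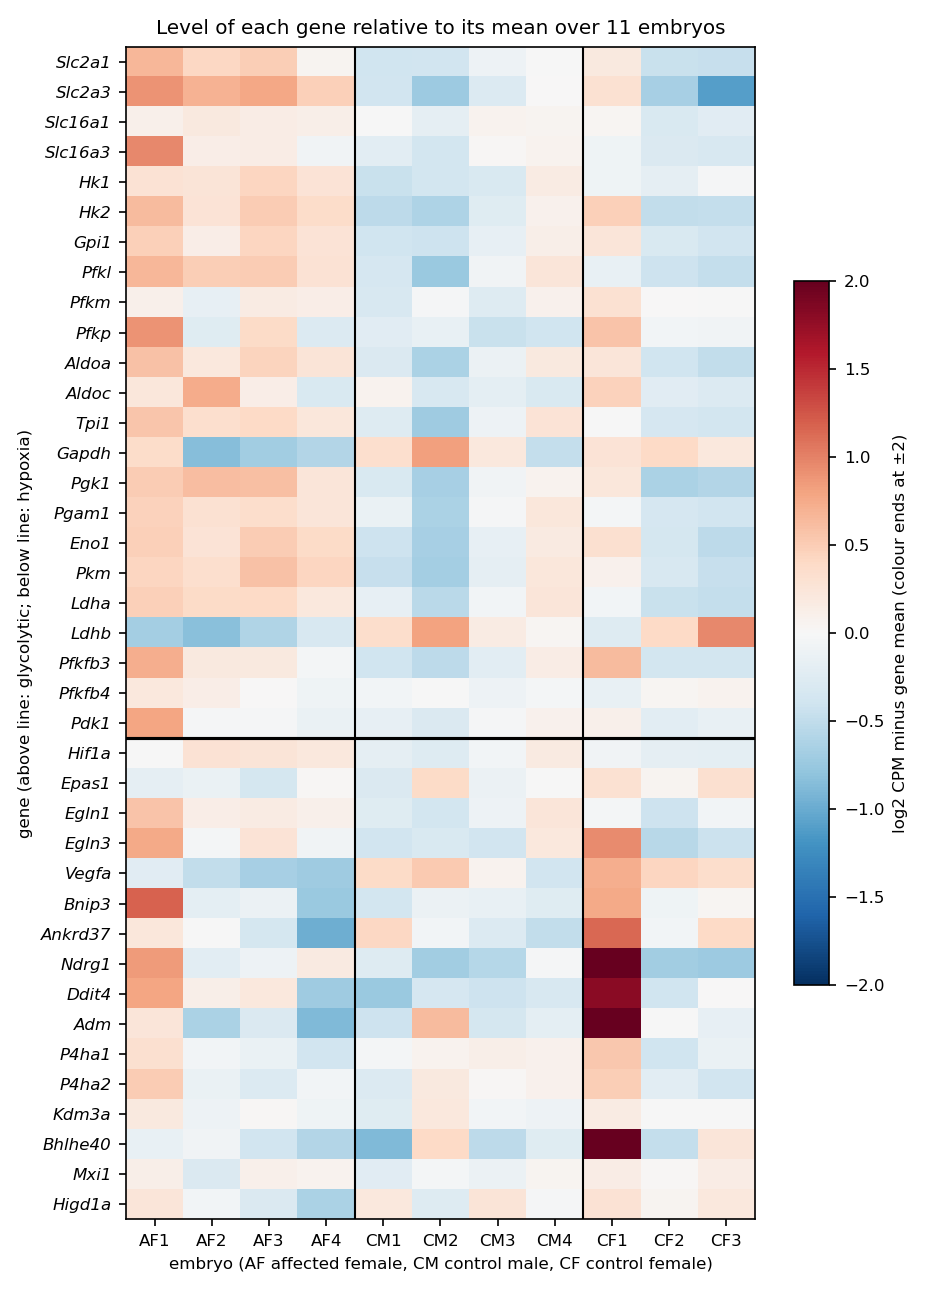
Log2 CPM of each gene minus its mean over all embryos (red higher, blue lower), with 23 glycolytic genes above the line and 16 hypoxia genes below it. The 4 affected females (AF) are red for most glycolytic genes and blue for Ldhb, whereas the darkest red cells of the lower part, for Ndrg1, Ddit4, Adm and Bhlhe40, all lie in control female 1 (CF1).

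Control males and control females differ in p53 genotype and sex, and no member was called between them. With edgeR 0 of 39 members passed, 3 had an unadjusted p under 0.05, and DESeq2 also called 0. Limma voom with sample weights called 5 of 39, all glycolytic and higher in control males. That fit called 10.8% of all tested genes (4.79% higher and 6.00% lower). The background for edgeR was 0.144% of tested genes called (0.0481% higher and 0.0963% lower), and 6.13% at the unadjusted p. The control males lay wholly above the control females for 0 members (background 2.99%) and wholly below for Pfkp and Bnip3 (2.54%). The median log2 fold change was -0.01 over glycolytic genes and -0.27 over hypoxia genes, and -0.06 over hypoxia genes without control female 1. For Slc2a3 it was 0.04 and for Ldhb -0.09, beside 1.08 and -1.06 in affected females against the same control females.

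Each embryo was then given 1 value per class: the median, over its genes, of log2 CPM minus that gene's mean in the 11 embryos. The glycolytic median was 0.48, 0.25, 0.39 and 0.21 in affected females, -0.29, -0.41, -0.11 and 0.09 in control males and 0.19, -0.32 and -0.37 in control females. Control male 4 and control female 1 came closest to the affected females. The hypoxia median was 0.24, -0.09, -0.13 and -0.23 in affected females, -0.25, -0.04, -0.12 and -0.03 in control males and 0.63, -0.13 and 0.00 in control females. Between groups its order did not follow that of the glycolytic genes. Within their groups, affected female 1, control male 4 and control female 1 were highest for both classes.

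Some other measures moved with the glycolytic genes across embryos. The median of 10 early neuron markers, among them Tubb3, Dcx and Nhlh1, was -1.02 to -0.44 in affected females and -0.35 in control female 1, against 0.22 to 0.99 in the other controls. Of these markers 9 fell against control females and 8 against control males, beside 15.0% and 10.7% of all tested genes. The median of 8 surface ectoderm markers, among them Epcam and Grhl2, was 0.29 to 0.62 in affected females, 0.04 in control male 4, 0.08 in control female 1 and -0.64 to -0.19 in the remaining controls. All 8 rose against control females and 7 against control males, beside 13.0% and 9.51% of all tested genes. The median of 8 head mesenchyme markers, among them Twist1 and Prrx1, was 0.06 to 0.41 in affected females and -0.17 to 0.03 in controls. It was lowest in control female 1, unlike the glycolytic median. The summed CPM of these 8 overlapped, at 323 to 401 in affected females, 308 to 410 in control males and 293 to 361 in control females. Of the 8, 2 rose against control females and 1 against control males, beside the same 13.0% and 9.51%. Genes of the mitochondrial DNA took 1.31% to 1.69% of counts in affected females, 2.06% in control male 4, 2.48% in control female 1 and 2.82% to 4.99% in the remaining controls. The part of these differences in the glycolytic result was not tested. Markers of primitive red cells, among them Hbb-bh1, summed to 573 CPM in control female 1 against 4474 and 4250 CPM in control females 2 and 3, 1155 to 2369 CPM in affected females and 2183 to 3767 CPM in control males. Of 6 macrophage markers only 1 was abundant enough to test, and the 6 summed to at most 6.03 CPM.

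**Figure D5:**
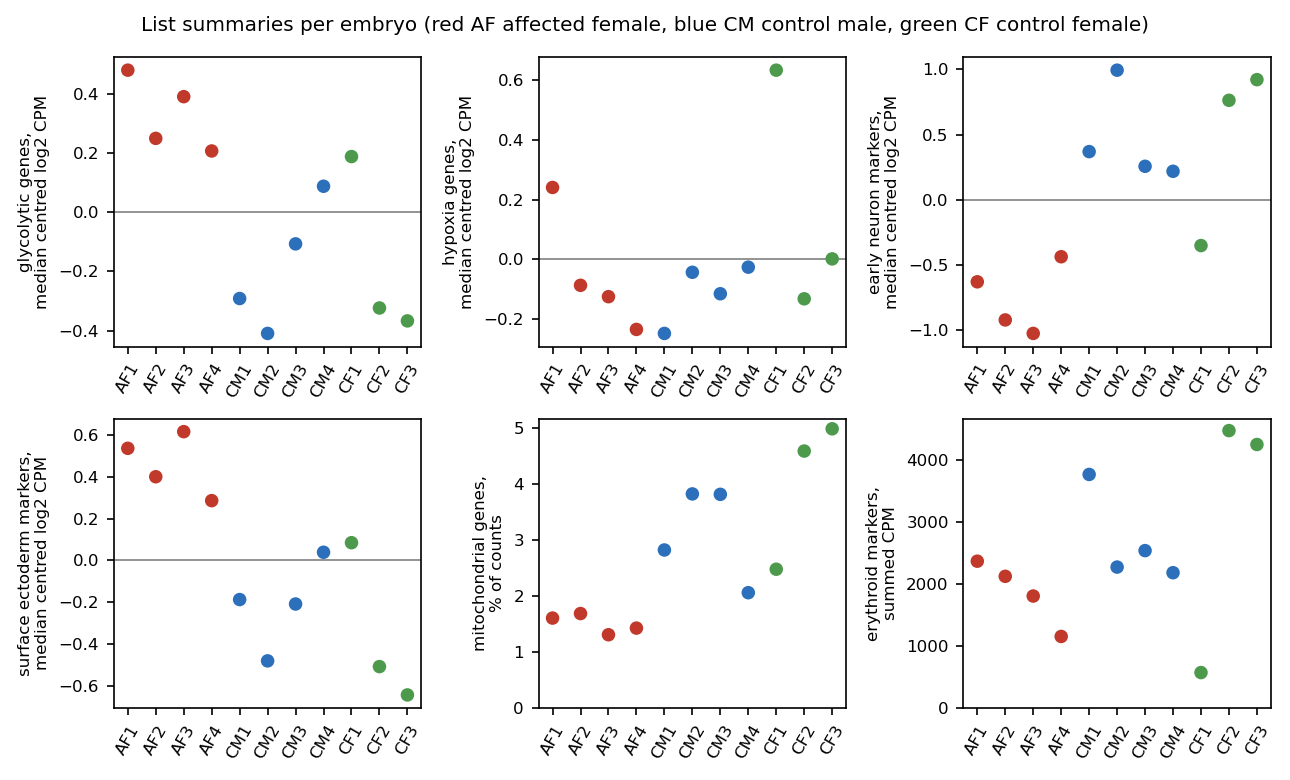
Per embryo (AF affected female, CM control male, CF control female), the median centred log2 CPM of glycolytic, hypoxia, early neuron and surface ectoderm genes, the percentage of counts from mitochondrial genes, and the summed CPM of red cell markers. CF1 and CM4 lie nearest the affected females for glycolytic genes (0.19 and 0.09) and for mitochondrial counts (2.48% and 2.06%), and CF1 has the highest hypoxia median (0.63).

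For genes of the same pathways outside the 39 members, the called number is given beside the share of all tested genes. Of 30 other glycolysis genes, including tissue-restricted isoenzymes, 22 were abundant enough to test. Against control females 2 rose and 3 fell, beside 13.0% and 15.0% of all tested genes. Against control males 0 rose and 2 fell, beside 9.51% and 10.7%, and 6 had an unadjusted p under 0.05, beside 37.3%. Pfkfb2, a heart-type relative of Pfkfb3, fell against control females (log2 fold change -0.83 with SE 0.18, edgeR adjusted p = 0.00591), as did Slc2a4, the insulin-responsive glucose transporter (-0.79 with SE 0.22, edgeR adjusted p = 0.0188). Of 14 genes for the entry of pyruvate into mitochondria, 13 were tested, and 3 rose and 2 fell against control females, where 28.0% of all tested genes were called. Pdha1, a subunit of pyruvate dehydrogenase, rose in the comparisons with control females (0.77 with SE 0.13, edgeR adjusted p = 0.00302) and control males (0.65 with SE 0.12, edgeR adjusted p = 0.00907). Pdk3, a kinase that inhibits that enzyme, rose by 0.53 (SE 0.12) and 0.47 (SE 0.11). Both genes are X-linked, like Pgk1. Mpc2, a subunit of the mitochondrial pyruvate carrier, fell by 0.85 (SE 0.19) and 0.55 (SE 0.18) on the log2 scale.

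Of 13 other genes of the oxygen-sensing machinery, 1 rose and 1 fell against control females, beside the same 28.0%. Cited2, which hypoxia induces and which restrains HIF-1α, rose by 0.62 (SE 0.13, edgeR adjusted p = 0.00525), and Eloc, a subunit of the ligase that degrades HIF-1α, fell by 0.41 on the log2 scale (SE 0.11, edgeR adjusted p = 0.0135). Of 34 other hypoxia targets, all tested, 4 rose and 4 fell against control females, and 3 rose and 5 fell against control males, where 28.0% and 20.2% of all tested genes were called. The medians were -0.07 and 0.14. Gbe1, which branches glycogen, rose by 0.52 (SE 0.13). Wsb1, a ubiquitin ligase subunit, fell by 0.82 (SE 0.15), Nrn1, a neuronal surface protein, by 2.15 (SE 0.54), and Fut11, a fucosyltransferase, by 0.41 (SE 0.11), all on the log2 scale against control females. Wsb1 was at 221 to 244 CPM in affected females, 391 to 415 CPM in control females and 241 to 460 CPM in control males, where control male 4 was lowest.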

How the data were processed

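Polyadenylated RNA of 11 embryos was sequenced on a HiSeq 2000 after TruSeq preparation, per the labels' protocols. The authors deposited raw whole-number counts per Entrez gene with gene lengths; reads were counted with featureCounts on mm10, per the submitters' processing notes. The sources used here do not give the aligner, strand setting, annotation or treatment of multiply matching reads. Groups and replicate numbers came from sample titles. Each p-value sets a difference between groups against the spread between embryos within the groups. Members and gene lists were chosen with earlier results of these data known. Identifiers were matched to symbols with a RefSeq table of GRCm38.p6 (25275 of 27179).

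Counts were filtered with filterByExpr, scaled by TMM and fitted with edgeR 4.0.16 in R 4.3.3: 1 quasi-likelihood fit of all 11 libraries with group as the only factor, Benjamini-Hochberg adjustment over 14542 genes and a threshold of 0.05. SE is the log2 fold change divided by the square root of F, and 95% intervals come from it. Log2 CPM used a prior count of 2. All 39 members may be named; values in every embryo were planned for called members and for Hif1a, Epas1, Vegfa, Slc2a1, Slc2a3, Ldha and Ldhb, and names for up to 4 genes of each other pathway list by adjusted p. Slc16a3 and Bhlhe40 are given partly by range, and values of single embryos of members not called, such as Ddit4 and Ndrg1, were chosen after they were seen. The fit was tested on simulated counts. Library pairs within a group differed by a chi-square per degree of freedom of at least 2.61. Alternatives covered scaling, filters, DESeq2 1.42.0, limma 3.58.1 voom, a replicate block, robust fitting, the libraries in the fit and a prior count of 0.5.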

Additional observations from a re-analysis of the deposited data

Results flagged for a closer look

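In groups of 4 embryos, the gap between the most extreme embryo and its neighbour was set against the whole range of log2 CPM. Of 78 such groups (39 genes in affected females and in control males), 4 exceeded Dixon's 95% critical value; chance flags about 1 in 20. Affected female 1 stood apart for Pdk1 (ratio 0.874; 204 CPM against 107 to 116 CPM) and for Egln1 (ratio 0.867; 105 CPM against 75.1 to 78.5 CPM). Affected female 2 was low for Mxi1 (ratio 0.884; 22.5 CPM against 28.8 to 29.7 CPM). Control male 4 was high for Egln3 (ratio 0.865; 17.0 CPM against 11.2 to 11.9 CPM).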

How the results depend on the processing

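No member that a comparison called changed the sign of its fold change there in any alternative, but calls were lost and gained. Of members not called, 9 changed sign against control females when 1 library was left out, and 5 changed sign against control males. The farthest were Ndrg1, from -0.72 to 0.99, and Ddit4, from -0.60 to 0.38, both against control females without control female 1. Leaving out 1 library at a time gave these ranges. Against control females, 2 to 15 glycolytic genes were higher and 1 to 2 lower, 0 to 4 hypoxia genes were higher and 1 to 5 lower, and 1663 to 4957 of all genes were called. The shares of all tested genes called higher and lower were 3.80% to 16.3% and 7.54% to 17.9%. Against control males the ranges were 0 to 15, 0 to 2, 0 to 2, 0 to 1 and 361 to 5140. Higher and lower shares of all tested genes there were 1.23% to 17.1% and 1.26% to 18.4%. Between the control groups no member was called and 18 to 35 genes were. The cause was not tested.

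For affected against control females, hypoxia genes called higher (1) became 2 with no filter, with DESeq2 and with only the 2 groups compared, 3 with voom, 0 with the replicate block and 4 without control female 1 and control male 4. Hypoxia genes called lower (2) became 4 with no filter and with DESeq2, and 1 with the replicate block, with robust fitting, without control female 1 and control male 4, and without affected female 1 and control female 1. Glycolytic genes called lower (1) became 2 with voom and without affected female 1 and control female 1, beside 27.1% and 14.2% of all tested genes. Glycolytic genes called higher (14) stayed between 11 (replicate block) and 16. Genes called in all (4073) became 7639 with voom and 2875 with the replicate block.

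For affected females against control males, glycolytic genes called lower (1) became 2 with voom and in each fit without a pair of embryos. All tested genes called lower made up 22.4% with voom and 21.0% without control female 1 and control male 4. Without affected female 1 and control female 1 they made up 10.1%. Hypoxia genes called higher (0) became 3 with voom, 5 without control female 1 and control male 4, and 1 without affected female 1 and control female 1. The shares of all tested genes called higher there were 21.6%, 19.9% and 9.12%. Hypoxia genes called lower (1) became 2 with voom, beside 22.4%. Genes called in all (2940) became 6397 with voom and 6014 without control female 1 and control male 4. Between the control groups, voom called 5 glycolytic genes higher and 1569 genes in all, and DESeq2 43 genes. Same-numbered embryos of different groups did not deviate together (correlations -0.14 to 0.18), so the replicate number was not taken as a pairing. With the replicate number as a block, 14 in place of 13 glycolytic genes rose against control males. The share of all tested genes called higher was 11.4% in place of 9.51%. A prior count of 0.5 moved no class median of an embryo by more than 0.0274. The lowest counts in any library were 5 for Adm, 24 for Bhlhe40, 25 for Ankrd37 and 28 for Aldoc.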
